A study of Mus musculus with 31 samples.

Results

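The comparison described here set inflammatory T helper 17 cells (Th17Inf in the labels) that received TGF-β1 together with dexamethasone against the same kind of cells left untreated. Its members are 6 of the 31 libraries of the series, 3 of the combination and 3 untreated, chosen by their labels alone, and it was read across all genes of one count table. All 6 came from wild-type C57/B6 T cells taken originally from spleen and draining lymph node, differentiated in culture and sampled after 2 days, with 2000 live cells sorted per library. Cells treated with dexamethasone alone (3 libraries) or TGF-β1 alone (3 libraries) came from the same experiment and are given for comparison. The other 19 libraries, from T cells of the central nervous system, were not used here. The labels give no dose, and they do not say whether the replicates were separate cultures or animals, so p-values measure the spread between these samples, which may be technical.

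Dexamethasone is a synthetic glucocorticoid. It enters the cell and binds the glucocorticoid receptor, a nuclear receptor held ready by heat shock chaperones, which then moves to the nucleus and raises or lowers the transcription of target genes. TGF-β1 is a secreted cytokine that binds a pair of receptor kinases at the cell surface, which phosphorylate Smad proteins, and in T cells it takes part in both regulatory T cell and Th17 differentiation. Th17 cells are helper T cells that make IL-17, and those made without TGF-β1 are commonly called inflammatory or pathogenic.

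The 6 libraries held 2915353 to 4291149 counts and 14070 to 15027 genes with a count, so that 3 counts corresponded to 0.632 to 1.05 CPM, the count scaled to a common library size. Between 11.7% and 30.8% of the counts fell on 15 predicted genes, several of which vary together, with both ends of that range in the combination group; their part in the results was not tested beyond leaving them out, after which 642 genes passed. The 12 T cell markers summed to 2703 to 2798 CPM in the untreated and 2611 to 2715 CPM in the combination libraries, none of them at 0. Among 24 myeloid and microglial markers, 10 had no count in any of the 6 libraries, among them Csf1r, Itgam, Adgre1, C1qa and Tyrobp; the list summed to 471 to 501 against 478 to 531 CPM, nearly all of it H2-Ab1. The B and plasma cell list, with Ms4a1 among the markers at 0, summed to 86.7 to 98.7 against 75.6 to 89.4 CPM, and the NK and CD8 T cell list, with Ncr1, Gzmk and Klrg1 at 0, to 23.9 to 24.3 against 21.7 to 34.6 CPM. Neutrophil markers, 6 of 10 at 0, summed to 4.09 to 4.90 against 2.74 to 5.44 CPM. None of the 5 sums reached the smallest p that 3 against 3 libraries allow, 0.1 (exact two-sided permutation tests, p = 0.4, 0.4, 0.2, 1 and 0.7 in the order given, and 0.667, 0.667, 0.667, 1 and 0.875 after Benjamini-Hochberg adjustment). In such bulk libraries fewer cells of a type and less RNA per cell cannot be told apart.

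With the combination, transcripts of IL-9, the chemokine receptor CCR6, the water channel Aqp3 and the protease inhibitors Timp1 and Ctla2a rose, and those of the type 2 cytokines, IL-3, granzyme B and several co-inhibitory receptors fell. Of 10332 genes tested, 646 (6.25%) passed an adjusted p of 0.05 (edgeR quasi-likelihood test, Benjamini-Hochberg over all tested genes), 322 higher (3.12%) and 324 lower (3.14%) in the combination. At least 2-fold changes made up 204 of them (1.97%), 104 higher (1.01%) and 100 lower (0.968%). The median log2 fold change of all tested genes was 0.00, and the ranges of the 2 groups did not overlap in 2438 genes (23.6%; 11.5% higher and 12.1% lower). Leaving out 1 of the 6 libraries at a time gave 425 to 502 genes, 425 without combination replicate 1 and 429 without untreated replicate 1. For single genes, not every alternative fit that lost a call is listed. Gene lists were chosen with earlier results of these data known, and their shares are to be read beside the 6.25% of all tested genes. Below, levels are CPM in replicates 1, 2 and 3, fold changes are log2 values ± standard error of the combination over the untreated group unless another group is named, and adjusted p-values are from edgeR.

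**Figure D1:**
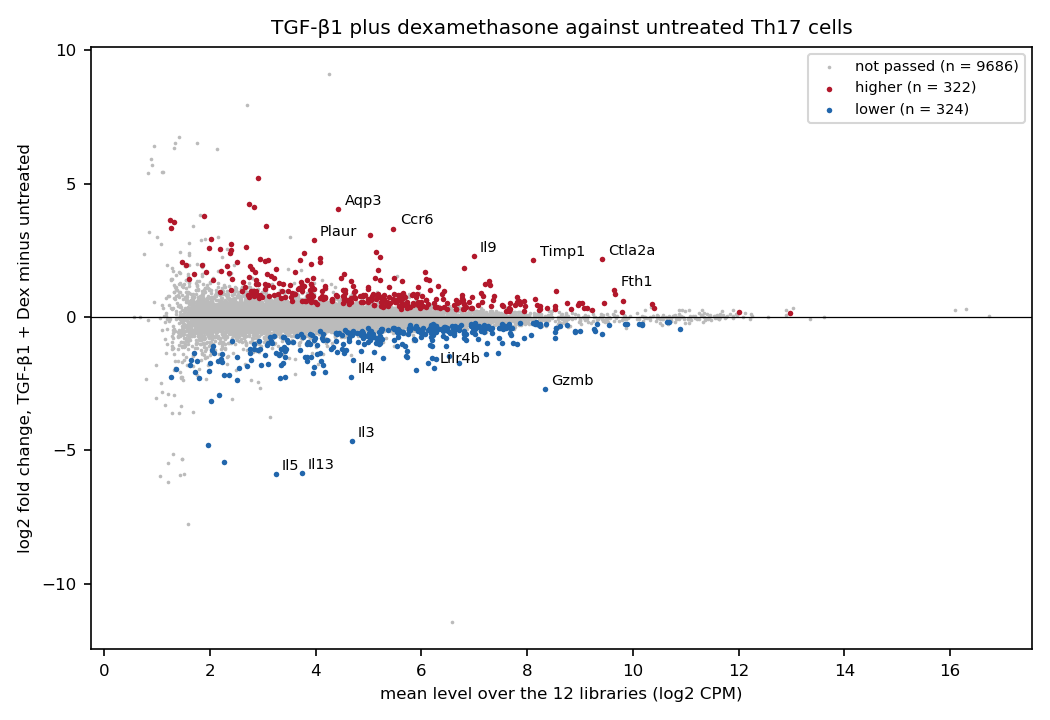
Log2 fold change of the combination over untreated cells (vertical) against mean log2 CPM over the 12 in vitro libraries (horizontal), one point per tested gene, with the 322 genes that passed higher in red and the 324 that passed lower in blue. Named genes include Il9 and Ctla2a above the zero line and Il3, Gzmb, Il5 and Il13 below it; wide scatter at the left is of genes with few counts.

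The classical glucocorticoid-induced genes were read first. Of 30 listed genes 20 were tested, of which 6 rose and 2 fell, with a median log2 fold change of 0.36 against 0.00 for all genes. Tsc22d3, which encodes the anti-inflammatory leucine zipper protein GILZ, stood at 45.8, 45.8 and 50.1 CPM in untreated and at 124, 99 and 93.3 CPM in combination libraries (1.15 ± 0.12, adjusted p = 5.85e-05). All 3 combination libraries lay above the untreated ones; dexamethasone alone gave 118, 119 and 109.6 CPM and TGF-β1 alone 54, 45.7 and 42.4 CPM. Sgk1, a serum- and glucocorticoid-inducible kinase of ion transport and T cell differentiation, went from 8.4, 6 and 5.11 to 26.5, 35 and 27.8 CPM (2.21 ± 0.26, adjusted p = 0.0002). Every combination library lay above all 9 other in vitro libraries for Sgk1, with 18.8, 18.3 and 13.3 CPM under dexamethasone and 18.5, 10.4 and 9.68 CPM under TGF-β1. The difference of Sgk1 from TGF-β1 alone passed (1.23 ± 0.24, adjusted p = 0.0449), whereas that from dexamethasone alone did not (0.81 ± 0.23, adjusted p = 0.102).

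Txnip, an arrestin that restrains glucose uptake, measured 25.2, 24.5 and 19 CPM in untreated and 43.9, 45.5 and 35 CPM in combination libraries (0.85 ± 0.14, adjusted p = 0.00266). Dusp1, a phosphatase of MAP kinases, rose by 0.74 ± 0.14; TGF-β1 alone was 0.65 above untreated (adjusted p = 0.0265), and dexamethasone alone, at 0.38, did not pass (adjusted p = 0.264). In the same direction, the metallothioneins Mt1 and Mt2, which bind zinc, rose by 0.49 and 0.54. In the other direction moved Tnfaip3, the NF-κB feedback inhibitor A20 (74.5, 67.3 and 69.4 against 48.6, 51.4 and 48 CPM, -0.51 ± 0.10, adjusted p = 0.00646), and Errfi1, an inhibitor of EGF receptor signalling (-0.65 ± 0.16, adjusted p = 0.0276). Errfi1 no longer passed without untreated replicate 1, 2 or 3 or combination replicate 1 or 3 (adjusted p 0.0549 to 0.111). With DESeq2 its adjusted p was 0.209. Fkbp5, the co-chaperone that dampens the receptor, had 4.2, 5.45 and 3.41 CPM in untreated and 8.5, 6.3 and 6.32 CPM in combination libraries; the ranges did not overlap, but the difference did not pass (0.68 ± 0.29, adjusted p = 0.221).

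The receptor itself gave no call. Nr3c1, the glucocorticoid receptor gene, was low throughout, at 4.55, 3 and 3.16 CPM in untreated and 3.06, 3.5 and 4.84 CPM in combination libraries (0.14 ± 0.34, adjusted p = 0.882). None of 18 tested genes for the receptor, its chaperones, co-regulators and steroid enzymes passed. Cyp11a1, which makes the first steroid from cholesterol, read 54.2, 54 and 46 CPM untreated and 38.4, 43.7 and 41.3 CPM in the combination (-0.32 ± 0.11, adjusted p = 0.128). Its level under the combination stood above dexamethasone alone (19.7, 25.4 and 21.1 CPM, difference 0.89 ± 0.12, adjusted p = 0.00144) and below TGF-β1 alone (65, 62.7 and 57.2 CPM, difference -0.58 ± 0.11, adjusted p = 0.0396).

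Promoter windows of the genes were searched for 4 motifs, since binding sites for the receptor and the Smads can lie there. The windows are those of RefSeq on GRCm38.p6, 250 bases before to 50 after each annotated start, several per gene where it has several starts, and both strands were read. The glucocorticoid half-site palindrome was in 4 of 326 windows of genes that passed higher (1.23%; Galnt11, Mt1, Sgk1 and Txnip), 1 of 314 windows of those lower (0.318%), 27 of 10077 windows of tested genes (0.268%) and 0.475% of all windows in the table. The Smad element GTCTAGAC was in 0.613% of windows of the higher genes (Klhl6 and Ltb4r1), in 0.318% of the lower ones (Tnfaip3) in 0.278% of tested genes and in 0.213% of all windows. The AP-1 letters TGANTCA were in 9.20%, 8.60% and 4.81% in the same order, against 7.81% of all windows in the table, and the NF-κB motif in 72.4%, 66.9% and 66.8%, against 50.8%. In all 227 of 322 higher and 240 of 324 lower genes had a window. A match describes letters only, and no match says only that the letters are not in the window.

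The windows of the listed glucocorticoid-induced genes with a palindrome or Smad element are printed here, in the direction of transcription, with the matching letters in capitals. Each match lies upstream of its annotated start: 188 bases for Sgk1 (chr10:21993640-21993939, + strand), 172 for Txnip (chr3:96557707-96558006, + strand), 94 for Mt1 (chr8:94178839-94179138, + strand) and 209 for the Smad element of Tnfaip3 (chr10:19011914-19012213, - strand), on GRCm38.p6. The Sgk1 window belongs to 1 of 6 annotated starts and the Tnfaip3 window to 1 of 2.
Sgk1: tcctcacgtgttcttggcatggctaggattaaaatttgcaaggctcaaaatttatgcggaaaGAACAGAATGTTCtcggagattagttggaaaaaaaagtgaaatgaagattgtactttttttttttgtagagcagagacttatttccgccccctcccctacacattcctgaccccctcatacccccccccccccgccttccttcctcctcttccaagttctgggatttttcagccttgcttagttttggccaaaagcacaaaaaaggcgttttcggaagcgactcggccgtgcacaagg
Txnip: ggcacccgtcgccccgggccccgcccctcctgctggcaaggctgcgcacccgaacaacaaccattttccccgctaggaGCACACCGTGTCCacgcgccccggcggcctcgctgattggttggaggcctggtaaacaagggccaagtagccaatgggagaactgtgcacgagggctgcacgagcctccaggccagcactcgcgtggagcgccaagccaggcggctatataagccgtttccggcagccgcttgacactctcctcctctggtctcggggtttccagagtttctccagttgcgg
Mt1: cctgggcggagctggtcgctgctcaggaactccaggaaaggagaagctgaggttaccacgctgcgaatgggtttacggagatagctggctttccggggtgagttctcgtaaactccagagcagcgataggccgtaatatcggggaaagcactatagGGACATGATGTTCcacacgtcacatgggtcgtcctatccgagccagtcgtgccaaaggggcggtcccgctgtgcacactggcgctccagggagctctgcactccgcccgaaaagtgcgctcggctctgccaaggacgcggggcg
Tnfaip3: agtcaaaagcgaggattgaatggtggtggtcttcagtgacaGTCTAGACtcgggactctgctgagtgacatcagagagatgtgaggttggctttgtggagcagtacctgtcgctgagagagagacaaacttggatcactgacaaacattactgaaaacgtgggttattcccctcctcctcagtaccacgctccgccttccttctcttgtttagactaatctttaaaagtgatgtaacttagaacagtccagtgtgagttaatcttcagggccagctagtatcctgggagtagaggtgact

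Genes known as targets of TGF-β1 were read the same way. Of 24 tested TGF-β and Smad targets 5 rose and 2 fell, with a median of 0.22. Nt5e encodes CD73, the surface enzyme that turns AMP into adenosine; it stood at 1.75, 1.09 and 1.22 CPM untreated and 15.3, 12.6 and 15.4 CPM in the combination (3.42 ± 0.28, adjusted p = 1.21e-05), and no library of the 2 groups overlapped. TGF-β1 alone gave 17.4, 11 and 11.2 CPM and dexamethasone alone 2.16, 1.92 and 2.93 CPM. Ldlrad4, an inhibitor of TGF-β signalling by Smad sequestration, rose by 2.76 ± 0.28 and Skil, a Smad repressor, by 0.98 ± 0.15 (adjusted p = 5.87e-05 and 0.00122). Gpr83, a receptor found on regulatory T cells, rose by 0.76. It did not pass without untreated replicate 1, 2 or 3 or combination replicate 1, 2 or 3 (adjusted p 0.0683 to 0.156). With DESeq2 its adjusted p was 0.214. Smad7, the inhibitory Smad, was at 5.6, 3.27 and 4.38 CPM in untreated and 3.74, 4.55 and 4.21 CPM in combination libraries (-0.06 ± 0.37, adjusted p = 0.962).

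The TGF-β pathway itself gave 2 calls, both higher. Among 12 tested ligands, receptors and Smads, the ligand gene Tgfb3 rose from 13.6, 8.99 and 9.74 to 21.4, 22.4 and 23.4 CPM (1.07 ± 0.21, adjusted p = 0.00814), next to 27.2, 27.9 and 19.2 CPM for dexamethasone alone and 13.2, 13.3 and 8.47 CPM for TGF-β1 alone. Tgfbr3, the co-receptor betaglycan, rose by 0.81 ± 0.12. The signalling receptors Tgfbr1 and Tgfbr2 had higher values in each combination library than in any untreated one, 3.74, 3.15 and 3.16 against 2.8, 2.45 and 1.7 and 24.8, 19.9 and 17.7 against 10.1, 16.4 and 14.8 CPM, but did not pass (adjusted p = 0.456 and 0.116).

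By the size of their change, the 15 genes named in each direction above a floor on level (an average log2 CPM of 4 or more) ran from 1.48 to 4.05 upward and from 1.46 to 4.65 downward on the log2 scale. Aqp3 (chr4:41092722-41098183, GRCm38, as are all positions here), a channel for water and glycerol, stood at 3.5, 1.36 and 2.43 CPM in untreated and 41.8, 37.4 and 40.01 CPM in combination libraries, 4.05 higher ± 0.29 (adjusted p = 2.7e-06). Dexamethasone alone left it at 2.78, 3.56 and 5.85 CPM and TGF-β1 alone at 47.6, 29.5 and 39.6 CPM. Ctsw, a cathepsin of cytotoxic lymphocytes, rose from 6.65, 8.99 and 3.16 to 54.1, 53.9 and 49.1 CPM (3.08 ± 0.24), and Timp1, an inhibitor of metalloproteinases, from 94.8, 103 and 85.7 to 505, 338 and 396 CPM (2.13 ± 0.18). For both the libraries of TGF-β1 alone lay in or above the range of the combination (64.6, 67.1 and 70.5 CPM for Ctsw and 615, 456 and 500.3 CPM for Timp1). Enpp2, the enzyme autotaxin that makes lysophosphatidic acid, rose from 15.4, 20.2 and 14.4 to 79.6, 45.1 and 47 CPM (1.77 ± 0.26), with 1 combination library well above the others. Acsbg1, an acyl-CoA synthetase, rose by 2.07, Slc4a11, a membrane transporter, by 1.68, the metalloproteinase Adam19 by 1.62, Crispld2 by 1.48 and AA467197 by 1.83.

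**Figure D2:**
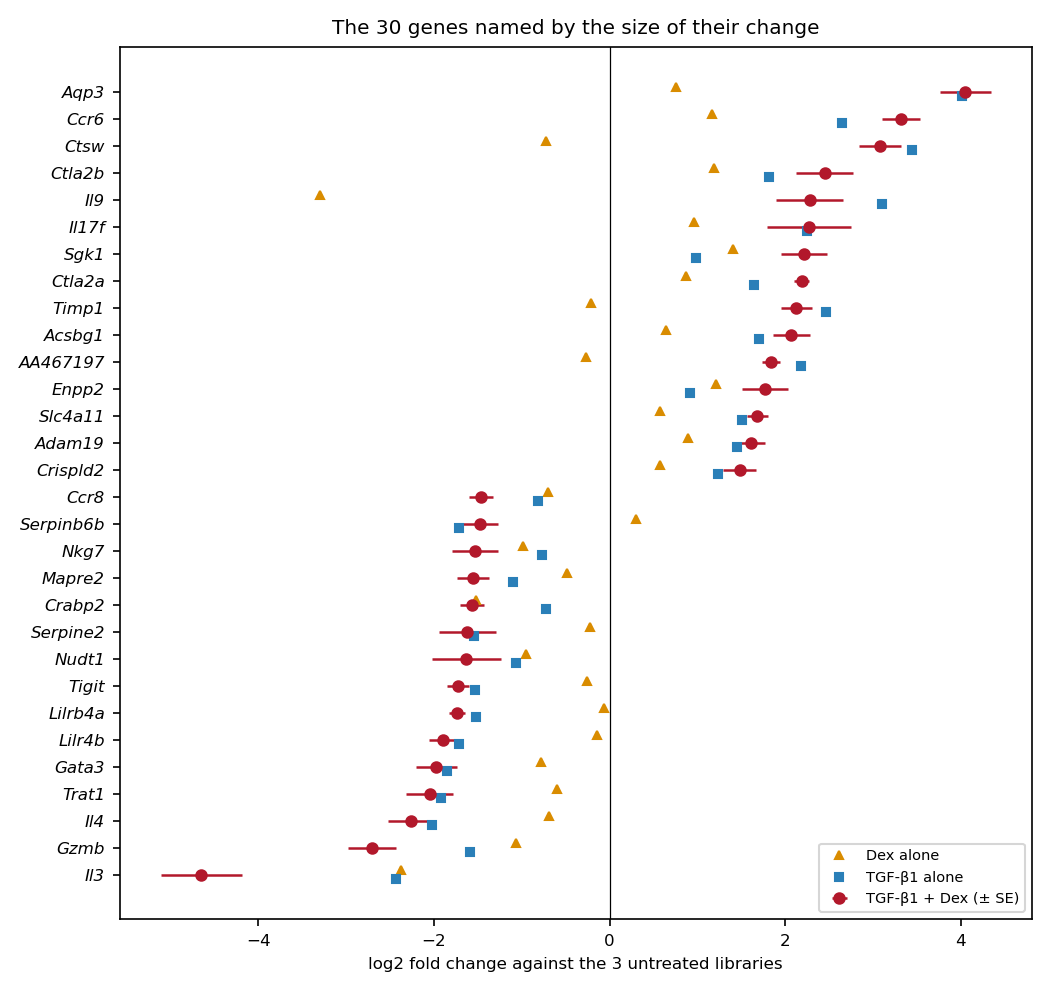
Log2 fold change against the 3 untreated libraries for the 15 genes named in each direction: red circles with bars give the combination ± standard error, orange triangles dexamethasone alone and blue squares TGF-β1 alone. Blue squares lie near the red circles for most genes, while for Il9 the orange triangle is at -3.30 and the red circle at 2.28.

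The 15 genes with the largest falls above that floor held cytokine, granule and inhibitory receptor genes; larger falls at lower levels, such as those of Il5 and Il13, are given with their groups. Gzmb, granzyme B, stood at 669, 707 and 589.8 CPM untreated and 68.7, 124 and 108 CPM in the combination (-2.71 ± 0.27, adjusted p = 0.000154), below 259, 390.5 and 292 CPM with dexamethasone and 159, 309 and 180.4 CPM with TGF-β1. Its difference from dexamethasone alone passed (-1.65 ± 0.27, adjusted p = 0.00759) and its difference from TGF-β1 alone did not (-1.11 ± 0.27, adjusted p = 0.132). Crabp2, a carrier of retinoic acid, fell from 144, 116 and 141 to 38.1, 45.8 and 50.5 CPM (-1.57 ± 0.13). Of the 15 it was the one that passed against TGF-β1 alone (-0.84 ± 0.13, adjusted p = 0.0145), and it did not pass against dexamethasone alone (45.1, 41 and 54.3 CPM, difference -0.05 ± 0.14, adjusted p = 0.938). Trat1, an adaptor of the T cell receptor complex, fell by 2.05 ± 0.27, Mapre2, a microtubule end protein, by 1.55 ± 0.18, and Serpine2, a protease inhibitor, by 1.62 ± 0.32, a call lost with no filter on low counts (adjusted p = 0.0695). Nudt1, a hydrolase of oxidised nucleotides, fell by 1.63 ± 0.39. It did not pass without untreated replicate 1 or combination replicate 1 or 2 (adjusted p 0.0583 to 0.0982). With no filter on low counts its adjusted p was 0.128.

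Cytokines moved in both directions. Of 21 tested secreted cytokines, 6 rose and 7 fell. Il9 (chr13:56479277-56482246), the cytokine of Th9 cells, stood at 46.5, 17.4 and 41.9 CPM in untreated, 4.94, 1.64 and 4.23 CPM in dexamethasone, 377, 171 and 353 CPM in TGF-β1 and 206, 132 and 172 CPM in combination libraries. The combination was 2.28 ± 0.38 above untreated (adjusted p = 0.00472) and 5.58 ± 0.54 above dexamethasone alone (adjusted p = 0.000279), while its difference from TGF-β1 alone did not pass (-0.82 ± 0.33, adjusted p = 0.445). Il17f (chr1:20777146-20790617), a Th17 cytokine, rose from 17.8, 4.09 and 13.9 to 74.1, 39.5 and 55.8 CPM (2.27 ± 0.48, adjusted p = 0.0158). It did not pass without untreated replicate 3 or combination replicate 1 (adjusted p 0.0535 to 0.0566). The call of Il17f was also lost with no filter on low counts (adjusted p = 0.0895) and when scaled by library size alone (0.0584). Il17a, whose protein pairs with it, had 21.7, 12.5 and 23.4 CPM in untreated and 26.2, 27.3 and 39.2 CPM in combination libraries, and despite ranges that did not overlap the difference did not pass (0.71 ± 0.50, adjusted p = 0.513). Il1rn, the antagonist of the IL-1 receptor, rose by 1.47 ± 0.25 (adjusted p = 0.00304), as did Lta and Ltb, given with the TNF family below.

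**Figure D3:**
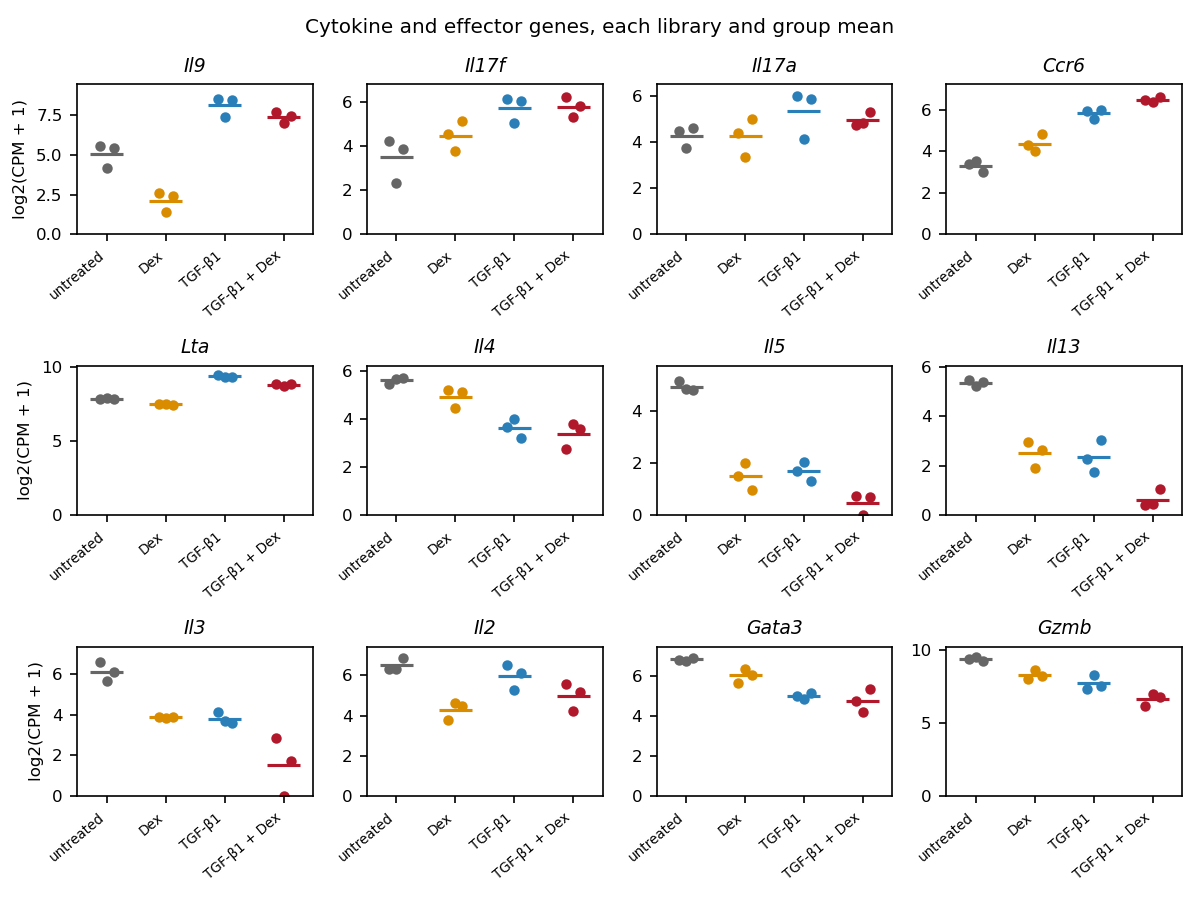
Levels as log2(CPM + 1) of 12 cytokine and effector genes in each library of the 4 in vitro groups, with bars at the group means. Il9 drops under dexamethasone alone and is high in both groups with TGF-β1, whereas Il5, Il13 and Il3 are lowest in the combination.

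The type 2 cytokines fell together with their transcription factor. Il5, Il13 and Il4 lie in one cluster on chromosome 11, and Gata3 is the factor that switches on this cluster in Th2 cells. Il13 (chr11:53631324-53634702) stood at 43, 36.8 and 41.1 CPM in untreated and 0.34, 0.35 and 1.05 CPM in combination libraries, and Il5 (chr11:53720794-53725106) at 35.3, 28.3 and 27 and 0.68, 0 and 0.632 CPM. These levels rest on 427 and 7 counts for Il13 over the 3 libraries of each group, a ratio of 60.5 (95% interval 29.1 to 151, counting error only), and on 316 and 5 for Il5, a ratio of 62.7 (26.6 to 194). Both passed (adjusted p = 3.76e-06 and 2.7e-06). Dexamethasone alone left 6.79, 2.74 and 5.2 CPM of Il13 and TGF-β1 alone 3.78, 2.31 and 7.26 CPM; the combination was below dexamethasone alone (-2.81 ± 0.57, adjusted p = 0.0202), and its difference from TGF-β1 alone had an adjusted p of 0.0735. Il4 (chr11:53602982-53618669) fell from 42, 48.8 and 51.4 to 5.78, 12.9 and 10.7 CPM (-2.26 ± 0.27, adjusted p = 0.0002) and Gata3 from 110.2, 107 and 119 to 26.2, 17.1 and 39.8 CPM (-1.97 ± 0.24, adjusted p = 0.000264). Of 13 tested Th2 and Th9 genes 6 fell and 3 rose, the last being Il9, Maf and Stat6. Stat6 did not pass without untreated replicate 1, 2 or 3 or combination replicate 2 or 3 (adjusted p 0.0536 to 0.109). Scaled by library size alone, its adjusted p was 0.284.

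Il3 (chr11:54265303-54267277), a growth factor for mast cells and basophils, fell from 96.2, 49.3 and 66.5 to 6.12, 0 and 2.32 CPM (-4.65 ± 0.46, adjusted p = 5.91e-05), and no count was found in 1 combination library. The level was below dexamethasone alone (13.6, 13.4 and 13.7 CPM, adjusted p = 0.0478); TGF-β1 alone gave 16.6, 11.9 and 10.9 CPM, and that difference did not pass (adjusted p = 0.126). Il2, the T cell growth factor, fell from 78.4, 78 and 114 to 45.9, 17.8 and 35.2 CPM (-1.45 ± 0.35, adjusted p = 0.033). Dexamethasone alone gave 12.7, 23.8 and 21.1 CPM. Il2 did not pass without untreated replicate 1, 2 or 3 or combination replicate 2 or 3 (adjusted p 0.0514 to 0.121). With no filter on low counts its adjusted p was 0.15. The inflammatory effector list that holds Il3, Gzmb and Il2 had 5 genes down and 2 up of 18 tested, with a median of -0.66. Il10 and Foxp3, genes of regulation, had too few counts to test: Il10 had 0, 2 and 1 counts untreated against 5, 10 and 8 in the combination, and Foxp3 0, 0 and 1 against 5, 2 and 4.

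Th17 identity genes rose in 8 of 14 tested and fell in 1, with a median of 0.77. Ccr6 (chr17:8236043-8257141), the receptor for CCL20 that guides Th17 cells to mucosal and inflamed tissue, stood at 9.45, 10.6 and 7.06 CPM untreated, 18.5, 15.1 and 27.3 CPM with dexamethasone, 61.6, 46 and 62.3 CPM with TGF-β1 and 89.4, 81.5 and 98.3 CPM with both (3.32 ± 0.22, adjusted p = 1.38e-06). It lay above all 9 other libraries. Its difference passed against dexamethasone alone (2.16 ± 0.19, adjusted p = 4.34e-05) and not against TGF-β1 alone (0.67 ± 0.17, adjusted p = 0.139). Maf, a driver of IL-10 in T cells, rose from 1.05, 1.36 and 1.7 to 4.76, 4.55 and 4.42 CPM (1.68 ± 0.31) but did not pass with DESeq2 (adjusted p = 0.064). Il6ra, the IL-6 receptor, rose from 3.5, 4.63 and 3.89 to 7.82, 10.8 and 9.69 CPM (1.22 ± 0.22), and Rora, a nuclear receptor of Th17 differentiation, from 19.2, 19.9 and 19.5 to 38.1, 28.3 and 37.1 CPM (0.82 ± 0.14). Batf, the AP-1 factor that opens Th17 loci with Irf4, was the member that fell (266, 243 and 256 against 123, 113 and 147 CPM, -0.99 ± 0.10, adjusted p = 6.59e-05). Irf4 rose by 0.31 but did not pass without combination replicate 3 (adjusted p = 0.0567) or when scaled by library size alone (0.326). Tmem176a rose by 2.06 ± 0.44 and did not pass without untreated replicate 2 or combination replicate 3 (adjusted p 0.0599 to 0.0687); its paralog and neighbour Tmem176b had a log2 fold change of 1.46 ± 0.44 without passing (adjusted p = 0.0706), and the levels of the pair together were 1.74 higher on the log2 scale.

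Homing receptors followed a mixed course, 5 up and 2 down of 14 tested. Ccr7, which draws T cells into lymph nodes, rose from 566, 546 and 582 to 1026, 1017 and 1052 CPM (0.87 ± 0.05, adjusted p = 4.62e-07), and Ptger4, a prostaglandin E2 receptor, from 9.1, 10.9 and 8.76 to 18.4, 18.5 and 20.4 CPM (1.00 ± 0.15). Ccr8, a chemokine receptor, fell from 166, 114 and 150.4 to 49, 49 and 57.3 CPM (-1.46 ± 0.13). Among 16 integrin and adhesion genes 3 rose and 2 fell: Icam2 rose by 1.22, Itgb2 by 0.42 and Itgb3 fell from 8.75, 10.4 and 9.25 to 1.7, 1.75 and 1.9 CPM (-2.38 ± 0.25, adjusted p = 7.79e-05). None of the 5 chemokine ligands tested passed.

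In the list of co-inhibitory receptors and their ligands 7 of 15 tested genes fell and none rose, with a median of -0.53. Tigit, a receptor that blocks activation through nectin ligands, fell from 104, 117 and 112 to 29.9, 40.6 and 30.7 CPM (-1.73 ± 0.13, adjusted p = 3.3e-06). Dexamethasone alone gave 81.8, 104 and 92.3 CPM and TGF-β1 alone 38.9, 40.8 and 35.4 CPM. Lilrb4a and Lilr4b, near-identical immunoglobulin-like receptors, fell by 1.74 ± 0.10 and 1.90 ± 0.16. Reads cannot be split with certainty between them, so they make up 2 of the 7 without being independent members. Together they were 1.81 lower on the log2 scale. The receptors Lag3 and Btla fell by 0.71 and 0.55. The other two were ligands, Cd200, which fell by 0.53, and Pdcd1lg2, the PD-1 ligand PD-L2, which fell by 0.88 but did not pass without untreated replicate 1 or combination replicate 1 or 3 (adjusted p 0.0569 to 0.101) or with DESeq2 (adjusted p = 0.0864). Pdcd1 and Ctla4, the targets of checkpoint antibodies, were tested and did not pass. In the costimulatory and TNF receptor list 3 of 16 rose and 2 fell. Tnfrsf13b, the receptor TACI, rose from 78.7, 89.7 and 100.3 to 212, 204 and 216 CPM (1.23 ± 0.10), and Icos, which sustains helper T cells, rose from 52.5, 51.2 and 59.6 to 104, 109 and 111 CPM (0.99 ± 0.09, adjusted p = 1.48e-05), next to 130.2, 116 and 124 CPM for dexamethasone alone and 55.5, 50.3 and 57.5 CPM for TGF-β1 alone.

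TNF family ligands split as well, 2 up and 3 down of 11. Lta, lymphotoxin alpha, stood at 220.1, 234 and 220.1 CPM untreated and 444, 413 and 463 CPM in the combination (0.97 ± 0.06, adjusted p = 5.87e-07), above dexamethasone alone (176, 175 and 169.7 CPM, 1.34 ± 0.06, adjusted p = 7.78e-08) and below TGF-β1 alone (676, 635 and 633 CPM, -0.56 ± 0.05, adjusted p = 0.000466). Ltb, lymphotoxin beta, rose by 0.33 ± 0.06, a call lost when scaled by library size alone (adjusted p = 0.199). Tnfsf8, the CD30 ligand, fell from 76.6, 68.4 and 78.9 to 28.6, 31.5 and 33.1 CPM (-1.26 ± 0.10, adjusted p = 9.49e-06) and was lower than under either agent alone. Cd40lg and Fasl, the ligands of CD40 and Fas, fell by 0.77 and 1.22. Cd40lg did not pass without untreated replicate 1, 2 or 3 or combination replicate 2 or 3 (adjusted p 0.0605 to 0.106). Fasl did not pass without untreated replicate 3 or combination replicate 1, 2 or 3 (adjusted p 0.0545 to 0.102). With DESeq2 the adjusted p of Fasl was 0.0791.

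In the cytotoxic granule list 9 of 11 tested genes passed (81.8%, against 6.25% of all tested genes), 6 down and 3 up. Prf1, Serpinb1a, Gzmc, Gzmd, Gzme, Gzmf, Gzmg and Gzmk, also among the 19 listed, had too few counts to test. Down were Gzmb, Nkg7, a granule membrane protein (114, 131 and 113 against 23.5, 59.5 and 40.8 CPM, -1.54 ± 0.26), Serpinb6b, Fasl, Srgn, the granule core protein serglycin, and Serpinb9, an inhibitor of granzyme B. Serpinb9 rested on 72 and 9 counts over the 3 libraries of each group, a ratio of 7.94 (95% interval 3.96 to 18.1). The call of Fasl was lost in the fits given with the TNF family. Up were Ctsw, Ctla2a and Ctla2b, the last 2 near-identical inhibitors of cathepsins, which were 2.20 higher in sum. Ctla2a and Ctla2b make up 2 of the 9 without being independent members. Ctla2a alone went from 275, 252 and 251 to 1309, 1182 and 1052 CPM (2.19 ± 0.08, adjusted p = 1.92e-08).

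Of the Th1 list 1 of 13 tested rose and 4 fell, with a median of -0.66. Il18r1, the receptor of IL-18, was the gene that rose (2.8, 2.18 and 2.68 against 11.6, 8.74 and 12.2 CPM, 2.09 ± 0.30), while Nkg7, Stat4, which carries IL-12 signals (-0.66 ± 0.13), Il12rb1 (-0.33 ± 0.07) and Fasl fell, Il12rb1 without passing when scaled by library size alone (adjusted p = 0.135). Tbx21, the Th1 master factor, had 12.6, 22.9 and 16.8 CPM untreated and 3.74, 15.7 and 6.32 CPM in the combination, with overlap and without passing (-1.07 ± 0.49, adjusted p = 0.269). In the regulatory T cell list 6 of 18 rose and 1 fell, with a median of 0.40: besides Nt5e, Ikzf4, the factor Eos, rose by 0.79 (adjusted p = 0.0553 in a fit of only the 2 groups) and Izumo1r, folate receptor 4, by 0.60, from 199.8, 176 and 193 to 279, 291 and 289.9 CPM. Il10ra, the IL-10 receptor chain, fell from 60.9, 50.7 and 57.7 to 28.2, 30.8 and 33.3 CPM (-0.86 ± 0.10, adjusted p = 0.000215).

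**Figure D4:**
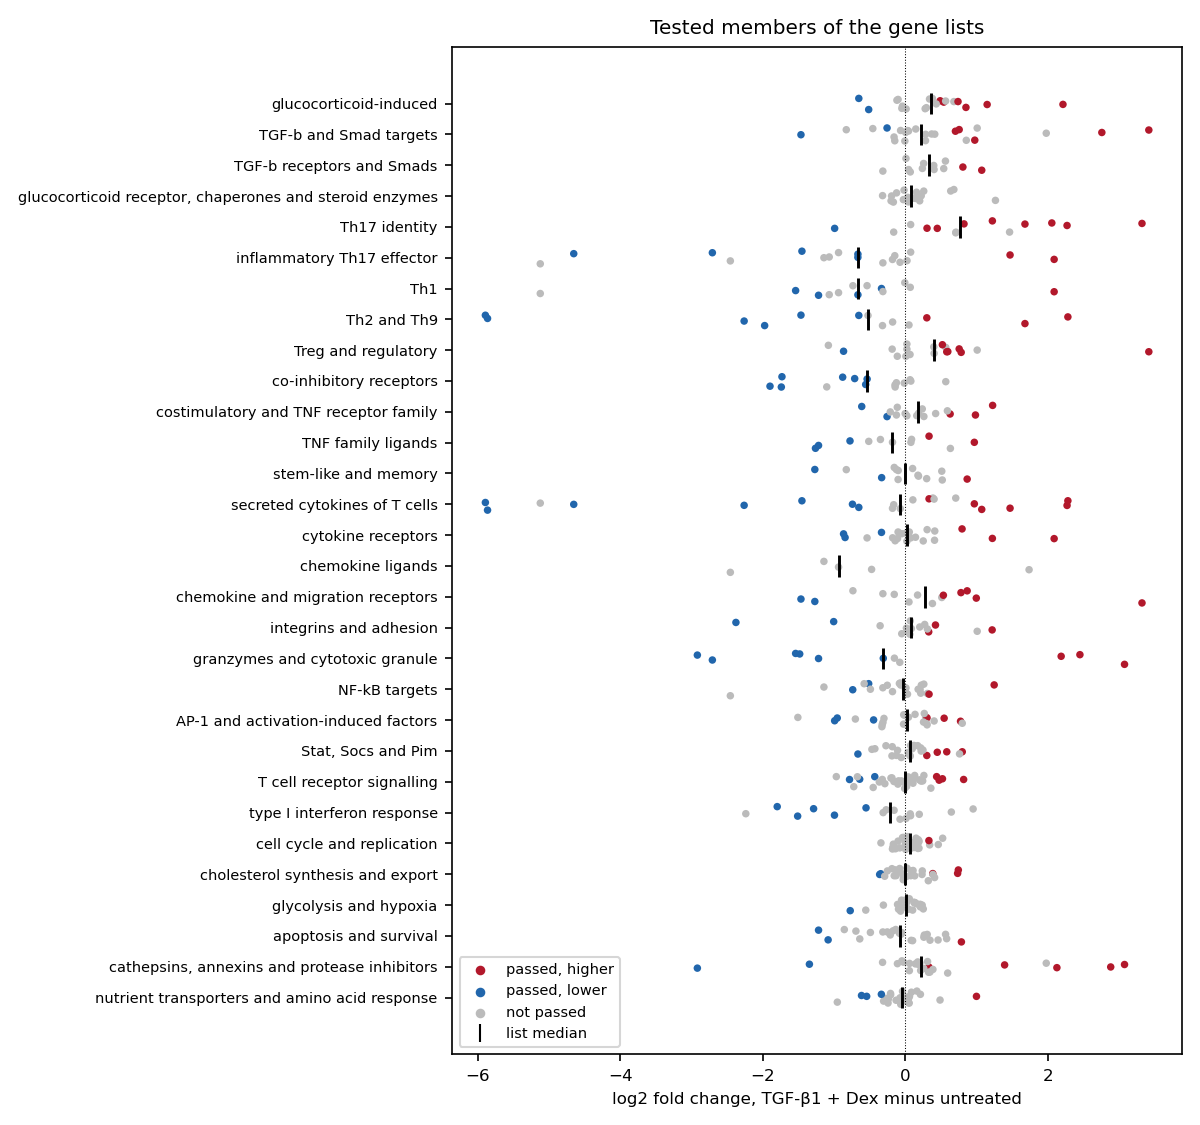
Log2 fold change of the combination over untreated for each tested member of the 30 gene lists, red where higher and blue where lower after passing, grey where not, with a bar at each list's median. Th17 identity has its median at 0.77, inhibitory receptors at -0.53, and cell cycle and glycolysis cluster near 0 with 1 passing gene each.

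Signalling and transcription genes changed in a minority of each list, though in a larger share than the 6.25% of all tested genes. The shares were 20% of T cell receptor signalling, 25% of AP-1 and activation-induced, 16.7% of NF-κB and 31.2% of interferon response genes. Many of the calls behind these shares were lost in at least 1 alternative fit. Among them were Cd247, Plcg1, Ptpn22 and Dusp4 of T cell receptor signalling and Batf3, Irf4, Egr1 and Nr4a1 of the AP-1 list. Rel, Ltb and Nfkbiz of the NF-κB list were lost too. With DESeq2, Rel had an adjusted p of 0.276 and Nr4a1 of 0.0907. Of 35 T cell receptor signalling genes 4 rose and 3 fell: Malt1, a protease of the NF-κB arm, rose from 33.9, 29.2 and 37.2 to 71.1, 51.1 and 55.6 CPM (0.82 ± 0.14), whereas Lcp2, an adaptor near the receptor, fell by 0.78. Socs3, a brake on cytokine signals, rose from 102, 96.5 and 109 to 182, 163 and 189.7 CPM (0.80 ± 0.10, adjusted p = 0.000407). Among 24 AP-1 and activation-induced genes 3 rose, among them Jun (0.78 ± 0.14), and 3 fell, among them Batf. Among 24 NF-κB targets 2 rose and 2 fell, Nfkbiz, an inducible nuclear IκB, rising by 1.25 without passing when untreated replicate 1 or 2 or combination replicate 3 (adjusted p 0.0807 to 0.106) was left out. Interferon response genes fell in 5 of 16 tested and rose in none, with a median of -0.21: Usp18, which removes ISG15 from proteins, fell from 18.9, 21.5 and 21.7 to 6.8, 10.1 and 5.47 CPM (-1.51 ± 0.26, adjusted p = 0.00309), and Isg15 and Xaf1 by 1.80 and 1.29, the former without passing when untreated replicate 1, 2 or 3 or combination replicate 1 or 3 (adjusted p 0.0575 to 0.122) was left out and the latter when untreated replicate 2 or combination replicate 2 (adjusted p 0.0515 to 0.053) was left out.

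Of 35 cell cycle and replication genes only Ccnd2 rose, from 552, 494 and 481 to 682, 604 and 634 CPM (0.33 ± 0.09, adjusted p = 0.0367). That is 2.86% of the list, against 6.25% of all tested genes. Ccnd2 no longer passed without untreated replicate 2 or 3 or combination replicate 1 or 3 (adjusted p 0.0872 to 0.127). Scaled by library size alone, its adjusted p was 0.267. Of 25 glycolysis and hypoxia genes only Slc2a3, a glucose transporter, changed, from 517, 473 and 481 to 277, 281 and 303 CPM (-0.77 ± 0.05, adjusted p = 2.14e-06), or 4% of the list. Its combination libraries lay below all 9 others, although the difference from dexamethasone alone did not pass (-0.17, adjusted p = 0.138). Fth1, ferritin heavy chain that stores iron, rose from 571, 543 and 510.2 to 1188, 1028 and 1032 CPM (1.00 ± 0.07, adjusted p = 3.3e-06) and was highest in the combination libraries. Among 24 apoptosis genes 1 rose and 2 fell (12.5%). Of the 29 cholesterol genes 3 rose and 2 fell (17.2%), with Scd1, a desaturase of fatty acids, rising by 0.75. Of 26 nutrient transporter and amino acid response genes 1 rose and 3 fell (15.4%), of 24 Stat, Socs and Pim genes 4 rose and 1 fell, of 21 cytokine receptors 3 rose and 3 fell, of 14 stem-like and memory genes 1 rose and 2 fell, and of 25 cathepsins, annexins and protease inhibitors 5 rose and 2 fell. Plaur, the urokinase receptor, rose from 3.5, 1.91 and 3.65 to 22.1, 24.1 and 21.3 CPM (2.88 ± 0.21, adjusted p = 3.67e-06). Every combination library lay below those of dexamethasone alone (33.9, 30.9 and 28.9 CPM). The level was far above TGF-β1 alone (3.78, 2.31 and 3.33 CPM, adjusted p = 9.89e-05). Cst7, an inhibitor of cathepsins, fell from 242, 273 and 263 to 92.2, 107 and 107 CPM (-1.34 ± 0.07).

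The combination was then compared with each agent alone. Against dexamethasone alone 271 genes passed (2.62%), 151 higher (1.46%) and 120 lower (1.16%), and against TGF-β1 alone 55 (0.532%), 32 higher (0.31%) and 23 lower (0.223%). When 1 library was left out these became 152 to 203 and 24 to 35 genes, the smallest against TGF-β1 alone being 24 without TGF-β1 replicate 1 or 2. All these comparisons share the untreated or the combination libraries. Alone against untreated, 189 (1.83%) genes passed with dexamethasone and 340 (3.29%) with TGF-β1. Among the 15 named genes that rose, 12 were higher than with dexamethasone alone and 2 than with TGF-β1 alone, and among the 15 that fell, 12 and 1 were lower. A p that missed the threshold does not show that the groups were alike.

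Against untreated, dexamethasone and TGF-β1 alike, 4 genes passed higher and 5 lower. Alternative settings and leaving out a library were tried for single genes only against untreated. No single gene's call against either agent alone was checked this way. Ctla2a had the widest difference from untreated of the 4: dexamethasone alone gave 503, 486 and 429.9 CPM and TGF-β1 alone 839, 790.1 and 812 CPM, and the combination, with 1309, 1182 and 1052 CPM, differed from them by 1.32 and 0.54 (adjusted p = 1.63e-06 and 0.00846). Cndp2, a dipeptidase, stood at 91, 105 and 96.2, 150.3, 158 and 135, 159.8, 167 and 161 and 216, 216 and 236 CPM in untreated, dexamethasone, TGF-β1 and combination libraries (1.19 ± 0.08 against untreated). Prnp, the prion protein, went from 48.6, 50.2 and 52.3 to 112, 91.3 and 100.02 CPM (1.00 ± 0.09), and Slc39a8, a zinc and manganese transporter that was named after its values were seen because its level is under the limit for naming, from 6.3, 9.81 and 9.74 to 24.5, 22.7 and 24.6 CPM (1.45 ± 0.17). On the low side were Tnfsf8, Gsn, C1qtnf12 and 2 genes that were named only here, Gm49342 and Trbv13-3. Gsn, the actin-severing protein gelsolin, had 227, 215 and 253 CPM untreated, 116, 114 and 129 CPM with dexamethasone, 147, 146 and 169 CPM with TGF-β1 and 80.9, 93 and 91.4 CPM with both (-1.39 ± 0.09). C1qtnf12, a secreted adipokine, did not pass for either agent against untreated (0.11 and 0.00) and fell in the combination from 186, 187 and 179 to 140.1, 133 and 141 CPM (-0.41 ± 0.06, adjusted p = 0.00122). The ranges of the combination lay wholly outside those of all 9 other in vitro libraries in 255 genes (2.47%), 120 above (1.16%) and 135 below (1.31%).

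**Figure D5:**
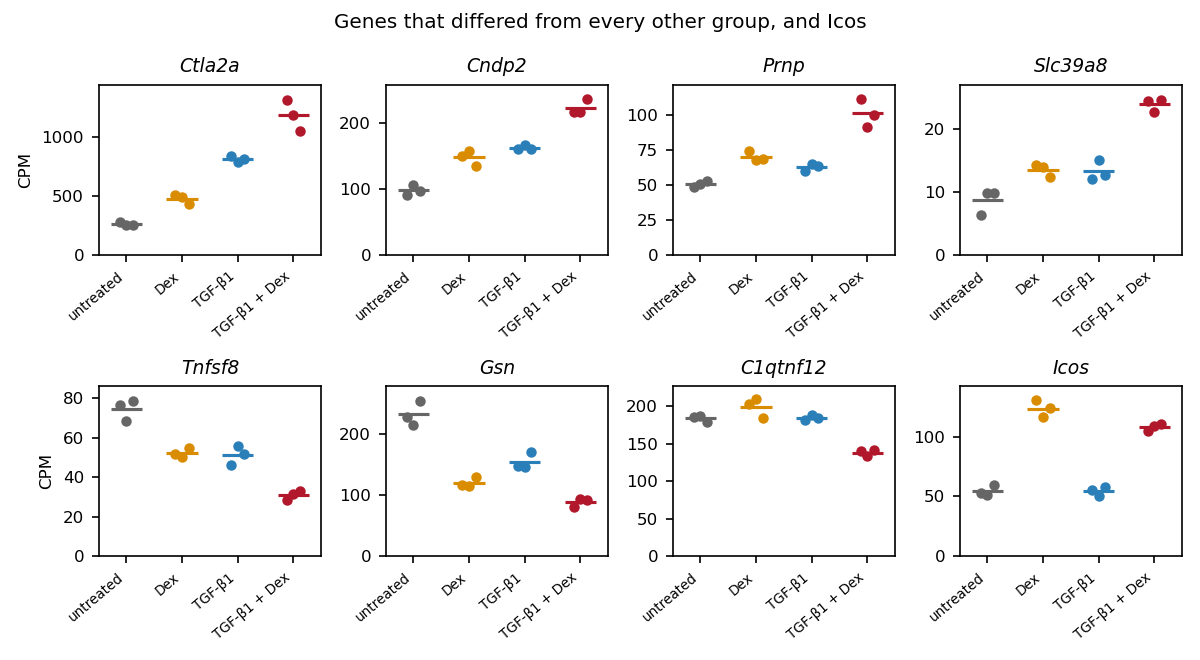
Levels in CPM of 7 genes that passed against each of the 3 other groups, and of Icos, in the 12 in vitro libraries, with a bar at each group mean. Ctla2a and Cndp2 climb from untreated to each agent to the combination, Gsn and Tnfsf8 fall the same way, and Icos is raised in the 2 groups with dexamethasone.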

How the data were processed

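Counts per gene were deposited by the authors in one table of the 12 in vitro libraries, made with RSEM 1.3.3 on mm10, per the submitters' processing notes; libraries were full-length SMART-Seq2 with Nextera XT, per the labels' protocols. Strand-aware counting and molecular identifiers are not given in the sources used here, so overlapping and antisense genes cannot be told apart and intervals cover counting error only. The table holds 31053 genes and 0 columns without a sample; the counts were whole numbers as deposited. Genes passing edgeR's filterByExpr (10332) were scaled by TMM and fitted with edgeR 4.0.16 (R 4.3.3; glmQLFit, robust, and glmQLFTest) over all 12 libraries with no block, and adjusted by Benjamini-Hochberg at 0.05. CPM used the TMM-scaled totals over tested genes. Replicates of one group differed by more than sampling noise (chi-square per degree of freedom 4.16 to 52.4), so none was merged. Marker sums were compared with exact two-sided permutation tests. Positions came from GENCODE M21 (GRCm38) and promoters from RefSeq.

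Named genes were up to 15 per direction with the largest change and a mean log2 CPM of at least 4, leaving out predicted genes, RIKEN clones, receptor segments and pseudogenes, plus up to 4 per direction of each list, defining genes, and up to 8 per direction that passed against all other groups. Lag3, Btla, Cd200, Rora, Srgn, Mt1, Mt2, Cyp11a1, Tmem176b, Il10 and the genes named for a motif fall outside that rule and were named after their values were seen. Members and the 35 lists (659 genes) were chosen with earlier results of these data known. Alternatives were RLE, upper quartile and no scaling, other count filters (none, mean of at least 50), DESeq2 1.42.0, limma 3.58.1 voom with sample weights, a replicate block, only the 2 groups compared, leaving out predicted genes of at least 0.2% of a library, and leaving out each library. The code of the fit was also run on data simulated from its own estimates, which cannot show how it handles these libraries. The other 19 libraries were not used here. Some genes that the naming rule covers are not reported here.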

Additional observations from a re-analysis of the deposited data

How the results depend on the processing

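Scaling by library size alone gave fewer genes than the 646: 385 against untreated (180 higher, 205 lower), 132 against dexamethasone (63 and 69) and 15 against TGF-β1 (11 and 4). Against TGF-β1 alone a mean count of at least 50 gave 37 lower genes, and DESeq2 gave 94 genes (51 and 43). The fit of only 2 groups, with fewer libraries, gave 22 genes (16 and 6). The causes of these shifts, and of those with library size alone, were not tested. Leaving out each library gave 425 to 502 genes against untreated (227 to 276 higher, 193 to 233 lower), 152 to 203 against dexamethasone (82 to 116, 63 to 87) and 24 to 35 against TGF-β1 (13 to 22, 9 to 15), and 401 to 459 of the 646 passed again. Same-numbered libraries had correlated deviations of -0.0387, -0.0002 and 0.0887 between combination and untreated, 0.0841, -0.0642 and 0.0699 with TGF-β1, and 0.169, 0.0742 and 0.199 with dexamethasone. With dexamethasone every library correlated best with its own number, a hint from the data and not the design. The main fit had no block because the labels do not say what a replicate number marks. With a replicate block 650 genes passed against untreated, 280 against dexamethasone and 66 against TGF-β1; 5 named genes lost their call against untreated, among them Ccnd2 (adjusted p = 0.0541) and Gpr83 (0.0601). The change of Smad7 turned to 0.0081 with voom and ran from -0.235 to 0.128 when a library was left out, and that of Nr3c1 from -0.1 to 0.342. Marker sums turned to -0.0596 for myeloid cells without H2-Ab1 and 0.107 for neutrophils without Cxcr2; with a library left out they ran from -0.347 to 0.0457 for neutrophils and -0.0905 to 0.235 for NK and CD8 T cells. Of 123 named genes past the threshold against untreated, 43 lost it in at least 1 of 16 alternatives. Another 68 were tested in all 16 and passed in each, and 12 passed where tested but had too few counts for at least 1. Depth limited genes with few counts, such as Foxp3 and Il10.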
